A study of Caenorhabditis elegans with 11 samples.

Results

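The histone genes described here are 10 genes of Caenorhabditis elegans, 8 that encode core histones (his-2, his-3, his-4, his-18, his-32, his-38, his-40 and his-59) and 2 that encode linker histones (hil-1 and hil-7). They were taken by gene name from the authors' tables, which hold 939 distinct genes in 1106 entries, and all 10 were found. Poly(A)-enriched RNA of whole worms was sequenced in 11 libraries of 3 strains, 1 library for each strain and RNAi clone. Worms were fed bacteria carrying an RNAi clone against prp-8, prp-6 or prp-31, or a clone against gfp, a gene absent from worms without that transgene. The 3 prp genes code for components of the U4/U6.U5 tri-snRNP, a pre-assembled part of the spliceosome.

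The smg-1(r861) larvae, mutant in a kinase required for nonsense-mediated mRNA decay, and the N2 wild-type larvae were both labelled stage L3, had been fed from L1 for 24 hours at 20 °C, and gave 4 libraries each, 1 for every clone. The glp-4(bn2) mutants, whose germ cells do not proliferate at 25 °C, were 5-day adults grown at that temperature, kept 72 hours on OP50 bacteria and then 48 hours on prp-8, prp-31 or gfp RNAi, and gave 3 libraries. Their titles say L3, whereas their stage field says adult. The RNA came from whole animals, so fewer cells of a type and less histone RNA per cell cannot be told apart.

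Core histones form the protein spool around which DNA is wrapped, as an octamer of H2A, H2B, H3 and H4, and linker histones (H1) bind the DNA between the spools. Animals carry many near-identical copies of the core genes, most of them short and without introns, and transcribe them mainly during S phase, when new DNA has to be packaged. Their mRNAs typically end in a stem-loop rather than a poly(A) tail, whereas genes for replacement variants such as H3.3 contain introns, are polyadenylated and are used outside S phase as well.

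Values are the authors' FPKM (fragments per kilobase of transcript, scaled to the mapped fragments of the library) for single libraries, so that levels of different genes can be compared per length. Ratios are log2 of (knockdown FPKM + 1) over (gfp FPKM + 1), called "lower" or "higher" when they reach 2-fold, and they understate the change of genes with low values. With 1 library per group no difference has a replicate check and none was tested. The tables hold only genes that the authors had picked as higher or lower in the pooled knockdowns of a strain than in its gfp control, so a gene's presence in the lower table is not an independent result, and histone genes outside the tables have no value here. Of the targeted genes, the larval tables hold prp-31, and prp-8 and prp-6 have no value here. Its level was 24.0 FPKM in the smg-1 library fed the prp-31 clone and 25.3 FPKM in that of N2, against 31.4 and 40.6 FPKM in their gfp libraries, and it was 95.3 to 143.8 FPKM with the other clones. None of the 44 member values was listed at 0. Because the libraries were selected for poly(A) RNA, the values cover only the histone RNA that this selection kept. Near-identical copies can share reads, and the sources used here do not say how the authors' estimates divided them, so values of single core copies are uncertain.

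The core histone genes listed in the smg-1 tables were lower in every knockdown of that strain. All 8 core members in the smg-1 tables were at least 2-fold below gfp with each of the 3 clones. Across both smg-1 tables, of 485 genes, 5.36 percent reached 2-fold lower in every knockdown, and in the lower table alone, of 139 genes, 18.7 percent did. By clone, 21 percent of both tables were at least 2-fold lower with prp-8, 16.1 percent with prp-6 and 11.5 percent with prp-31 RNAi. The rates within the lower table were 71.2, 56.1 and 39.6 percent with prp-8, prp-6 and prp-31. Since all 8 core members were listed as lower by the authors, the rates of the lower table are the closer background.

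His-3 encodes an H2A and lies on chromosome V, with a deposited interval of 16040794 to 16041191 (the sources used here name no genome build). It had 1.96 FPKM with prp-8, 7.14 with prp-6 and 8.34 with prp-31 in smg-1 larvae, against 33.5 with gfp RNAi. Every knockdown library was at or below 24.9 percent of the control for this gene, with log2 ratios of −3.54, −2.08 and −1.88 for prp-8, prp-6 and prp-31, and the prp-8 ratio ranked 1 among the 139 genes of the smg-1 lower table.

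His-4, an H2B gene beside his-3 (chromosome V, 16040091 to 16040516), had 1.20 FPKM with prp-8, 2.87 with prp-6 and 3.57 with prp-31, against 12.1 with gfp RNAi. His-2, an H3 gene of the same locus (16041828 to 16042283), had 0.330, 1.19 and 1.07 FPKM with prp-8, prp-6 and prp-31 RNAi, against 6.09 with gfp RNAi. Both were lowest with prp-8, and for both the prp-6 and prp-31 libraries lay close together. The log2 ratios of his-4 were −2.58, −1.76 and −1.52, and those of his-2 were −2.42, −1.70 and −1.78, for prp-8, prp-6 and prp-31.

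On chromosome X, his-38 (H4, 7309564 to 7309889) had 2.67 FPKM with prp-8, 3.33 with prp-6 and 4.15 with prp-31, against 24.4 with gfp RNAi. Its neighbour his-40 (H3, 7310110 to 7310580) had 1.49, 4.53 and 5.92 FPKM with prp-8, prp-6 and prp-31 RNAi, against 21.6 with gfp RNAi. The 3 knockdowns of his-38 lay nearer to each other than those of his-40. His-38 had log2 ratios of −2.79, −2.55 and −2.30, and with prp-31 it ranked 1 of the 139 genes of the lower table; his-40 had −3.18, −2.03 and −1.71.

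His-59 (H3, chromosome IV, 7488217 to 7489142) had 1.33 FPKM with prp-8, 3.43 with prp-6 and 3.99 with prp-31, against 16.5 with gfp RNAi. His-18 (H4, chromosome V, 8898195 to 8898645), which lies apart from the other members, had 0.840, 2.77 and 3.01 FPKM with prp-8, prp-6 and prp-31 RNAi, against 14.0 with gfp RNAi. The order of the 4 libraries was the same for both genes. The log2 ratios were −2.91, −1.98 and −1.81 for his-59 and −3.03, −1.99 and −1.91 for his-18.

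His-32 (H3, chromosome IV, 8334298 to 8334765) had the weakest change with prp-31 among the core members. It had 3.17 FPKM with prp-8, 3.91 with prp-6 and 10.3 with prp-31 in smg-1 larvae, against 22.8 with gfp RNAi. The prp-31 library was at 45.1 percent of the control and the other 2 knockdown libraries were far lower. For the other core members the prp-31 library was between 17.0 percent (his-38) and 29.5 percent (his-4) of the control. The 5 further core genes described below lay between, from 31.6 percent (his-61) to 36.3 percent (his-1). The log2 ratios of his-32 were −2.51, −2.28 and −1.08 for prp-8, prp-6 and prp-31, the last the smallest change with prp-31 among the 8. His-1 was close to it, at −1.13 with prp-31.

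**Figure D1:**
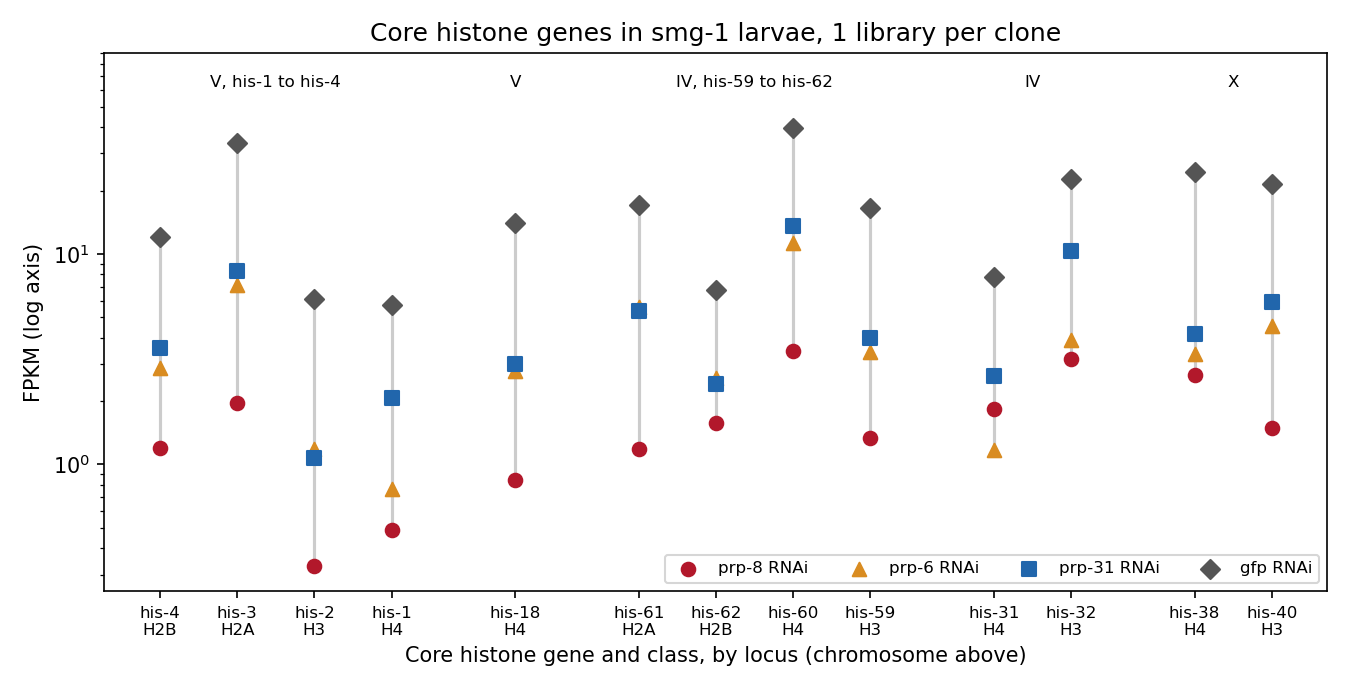
FPKM on a log axis of the 13 core histone genes in the smg-1 tables, with 1 point for each library (prp-8, prp-6, prp-31 and gfp RNAi) and genes grouped by locus. The gfp library is the highest point for every gene, and the prp-8 library is the lowest for 12 of the 13.

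The smg-1 lower table held 5 further core histone genes, his-1, his-31, his-60, his-61 and his-62, which with the 8 members make 13. Of these, his-60 (H4) had the highest level, with 3.44 FPKM with prp-8, 11.3 with prp-6 and 13.6 with prp-31, against 39.7 with gfp RNAi. His-61 (H2A) had 1.18, 5.59 and 5.38 FPKM with prp-8, prp-6 and prp-31 RNAi, against 17.0 with gfp RNAi. The remaining genes were low in all libraries, with 5.72 (his-1), 6.73 (his-62) and 7.76 (his-31) FPKM with gfp RNAi. All 13 genes were at least 2-fold below gfp in every knockdown, and they made up 13 of the 26 genes of the smg-1 tables that were. Among the other 125 genes of the lower table, with all histone names left out, 10.4 percent were at least 2-fold lower in every knockdown.

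The median log2 ratio of the 13 core genes was −2.79 with prp-8, −1.98 with prp-6 and −1.52 with prp-31. The same medians over the other 125 genes of the lower table were −1.23, −1.01 and −0.66. The ranges of both sets overlap with every clone, as the plot of the lower table shows. With prp-8 the core genes spread from −3.54 to −1.59, with prp-6 from −2.55 to −1.11 and with prp-31 from −2.30 to −1.08.

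**Figure D2:**
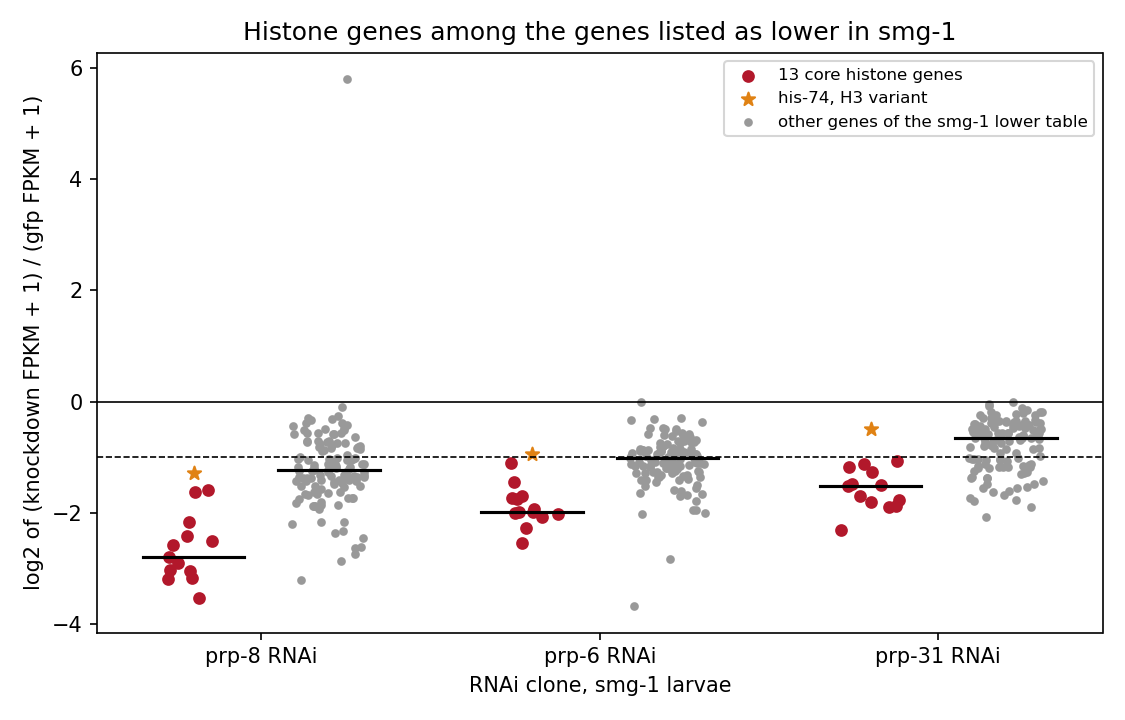
Log2 of (knockdown FPKM + 1) over (gfp FPKM + 1) for each gene listed as lower in smg-1, by clone; red points are the 13 core histone genes, stars his-74, grey points the other genes, short lines the medians of the red and of the grey points, and the dashed line a 2-fold lower level. All red points lie below the dashed line, and their medians are −2.79, −1.98 and −1.52 for prp-8, prp-6 and prp-31, against −1.23, −1.01 and −0.66 for the grey points.

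The clones kept a similar order across the core genes. The prp-8 library held the lowest value for all 8 core members and for 12 of the 13 core genes, the exception being his-31 (1.84 FPKM with prp-8, 1.17 with prp-6 and 2.64 with prp-31, against 7.76 with gfp RNAi). In the other 125 genes of the lower table, 50.4 percent were lowest with prp-8. The prp-6 library was below the prp-31 library for 10 of the 13 core genes, or 76.9 percent, against 71.2 percent of those other genes, so that this second order was close to that of the table. All 3 clones were set against the same gfp library, and each clone was a single library.

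Summing the listed copies of a class gives levels that depend less on how reads were split among those copies. The sums leave out the copies outside the tables, which are counted with the loci below, and do not settle reads shared with them. The 4 H3 genes (his-2, his-32, his-40 and his-59) summed to 6.33 FPKM with prp-8, 13.1 with prp-6 and 21.3 with prp-31, against 67.0 with gfp RNAi. The 5 H4 genes summed to 9.28, 19.3 and 25.4 FPKM with prp-8, prp-6 and prp-31, against 91.6 with gfp. These H3 and H4 sums, of the histones that form the tetramer at the centre of the octamer, were at 9.44 and 10.1 percent of gfp with prp-8.

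The 2 H2A genes (his-3 and his-61) summed to 3.14 FPKM with prp-8, 12.7 with prp-6 and 13.7 with prp-31, against 50.5 with gfp. The 2 H2B genes (his-4 and his-62) summed to 2.77, 5.45 and 5.97 FPKM with prp-8, prp-6 and prp-31, against 18.8 with gfp. Relative to gfp, the class sums lay between 19.5 percent (H3) and 28.9 percent (H2B) with prp-6, between 6.21 percent (H2A) and 14.7 percent (H2B) with prp-8, and between 27.2 percent (H2A) and 31.7 percent (H3 and H2B) with prp-31. All 13 genes together were at 9.44, 22.2 and 29.1 percent of gfp with prp-8, prp-6 and prp-31 RNAi. All genes summed here had been listed as lower by the authors, so low sums in every class follow largely from that selection. H2B, which rests on a pair of low genes, kept the largest share with prp-6 and prp-8.

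**Figure D3:**
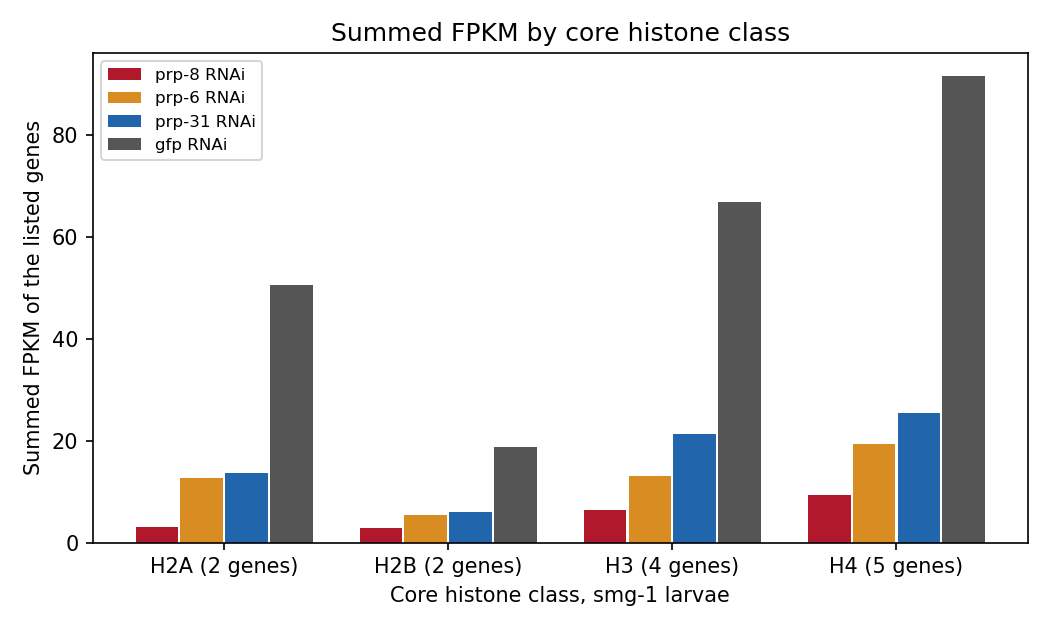
Summed FPKM of the listed core histone genes of each class in smg-1 larvae, with a bar for each library and no error bars, since each is 1 library. In all 4 classes the gfp bar is the highest and the prp-8 bar the lowest, for example 6.33 FPKM with prp-8 against 67.0 with gfp for H3.

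The listed core genes fall into 4 loci with more than 1 such gene, and his-18 lies alone among the listed genes. Matched by name to the WBcel235 gene annotation of Ensembl release 115, all 13 are annotated with a single exon, and their coding lengths without the stop codon are 309 bases for the H4, 408 for the H3, 381 for the H2A and 369 for the H2B genes. In that annotation 37 single-exon genes with a histone name have the coding length of one of these 13, and the 13 listed ones include 5 of 11 of the H4 length, 4 of 11 of the H3 length, 2 of 9 of the H2A length and 2 of 6 of the H2B length. All 13 listed genes but his-18 stand in 6 neighbouring pairs in which the left gene is on the minus strand and the right gene on the plus strand. Each pair is thus transcribed outwards from the space between its genes. In the deposited intervals this space measured 206 to 317 bases. Pairs were sought among listed genes only, so his-18 may have an unlisted partner.

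Both members of each pair were lower, but not always by the same amount. On chromosome IV, the H4 gene his-60 had 2.59, 3.28 and 3.40 times the FPKM of its H3 partner his-59 with prp-8, prp-6 and prp-31 RNAi, against 2.40 times with gfp RNAi. For the H2A gene his-61 and its H2B partner his-62 the ratio was 0.752, 2.17 and 2.24 with prp-8, prp-6 and prp-31, against 2.53 with gfp. This pair showed the largest difference in log2 ratio within any of the 6 pairs, −1.46 with prp-8, at values of 1.18 and 1.57 FPKM. For his-3 over his-4 the ratio was 1.64, 2.49 and 2.34 with prp-8, prp-6 and prp-31, against 2.77 with gfp.

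Between loci, the summed FPKM with prp-31 RNAi ranged from 21.9 percent of gfp for his-38 and his-40 on chromosome X to 42.3 percent for his-31 and his-32 on chromosome IV. With prp-8 RNAi, the sum of his-1 to his-4 on chromosome V was at 6.92 percent of gfp, that of his-59 to his-62 on chromosome IV at 9.42 percent, that of his-38 and his-40 at 9.06 percent, and that of his-31 and his-32 at 16.4 percent. The locus of his-31 and his-32 thus kept the largest share of its control level with prp-8 and with prp-31, and with prp-6 the smallest, at 16.6 percent, where the other loci had 17.1 to 28.6 percent.

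In the annotation 18 genes with a histone name have more than 1 exon in every transcript, and 2 of these were listed, his-74 and hil-1. The authors had listed his-74 and the single-exon copies as lower and hil-1 as higher, so these directions were set by selection. The part of introns was not tested. His-74, which is not 1 of the 10 and encodes a variant of the H3.3 type, was in the smg-1 lower table (chromosome V, 12660045 to 12660330, 2 annotated exons). Its level was the highest of any listed histone gene with gfp, prp-6 and prp-31 RNAi, whereas with prp-8 that of hil-1 was higher. It had 30.3 FPKM with prp-8, 38.7 with prp-6 and 53.6 with prp-31, against 75.6 with gfp RNAi. Its log2 ratios of −1.29, −0.95 and −0.49 for prp-8, prp-6 and prp-31 were nearer to 0 than those of all 13 single-exon genes with every clone. The deposited interval of his-74 is shorter than its annotated coding length of 408 bases, so its level is uncertain beside those of the other genes. For 13 of the 16 listed histone genes the annotated gene lay inside the deposited interval, and for his-74, hil-1 and hil-7 it did not.

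The linker histone gene hil-1 (chromosome V, 14949777 to 14952792; 5 annotated exons) was in the smg-1 higher table. It had 57.8 FPKM with prp-8, 19.5 with prp-6 and 17.9 with prp-31, against 15.3 with gfp RNAi. Only the prp-8 library stood well above the control, with a log2 ratio of 1.85, and 61 percent of both smg-1 tables and 85.3 percent of the higher table were likewise at least 2-fold higher with that clone. The prp-6 and prp-31 ratios of 0.33 and 0.22 were small. When the median ratio of the smg-1 tables was set to 0 for each clone, hil-1 was at 0.59 with prp-8, below 2-fold, and at −0.37 with prp-6 and −0.047 with prp-31. In the authors' deposited table the q-value of hil-1 was 0.140.

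In N2 larvae 2 of the members were listed, his-32 as lower and hil-7 as higher, and no other gene with a histone name. His-32 had 1.03 FPKM with prp-8, 2.33 with prp-6 and 8.26 with prp-31, against 13.2 with gfp RNAi. The prp-8 and prp-6 libraries were far below the control, at 7.77 and 17.6 percent of it, and the prp-31 library less so, at 62.4 percent. Among the genes listed as lower in N2, 87.9, 93.9 and 16.7 percent of 66 were at least 2-fold lower with prp-8, prp-6 and prp-31, and in both N2 lists together 21.9, 13.5 and 2.74 percent were. His-32 thus followed most of its table with every clone. In the authors' deposited table its q-value was 0.203 in N2 and 0.00821 in smg-1.

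His-32 is the single histone gene with values in both larval strains. Its level was higher in smg-1 than in N2 with every clone, by 1.04 with prp-8, 0.56 with prp-6, 0.28 with prp-31 and 0.74 with gfp RNAi on the log2 scale of FPKM + 1. The medians of the 17 genes found in both lower tables were 0.40 with prp-8, 0.61 with prp-6, 0.39 with prp-31 and 0.22 with gfp RNAi. Over all 147 genes found in the tables of both strains they were −0.063, −0.15, 0.046 and 0.11 in the same order of clones, below the differences of his-32 throughout. With gfp and with prp-8 RNAi the strain difference of his-32 was the largest of the 17, whereas with prp-6 and prp-31 it ranked 11 of these 17. The ratio to gfp differed between smg-1 and N2 by 0.30 with prp-8, −0.18 with prp-6 and −0.46 with prp-31, and these differences rest on single libraries.

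Hil-7, a linker histone gene on chromosome IV (6646034 to 6646939), is annotated with 1 to 3 exons by transcript. Its longest annotated coding length is 198 bases, against 696 for hil-1. Hil-7 had 8.34 FPKM with prp-8, 13.3 with prp-6 and 4.37 with prp-31 in N2 larvae, against 2.44 with gfp RNAi. All knockdown libraries lay above the control, with log2 ratios of 1.44, 2.05 and 0.64. With the median ratio of the N2 tables set to 0 these were 1.09, 0.33 and 0.058, so that the prp-6 ratio was no longer 2-fold. Its prp-6 ratio was equal to the median of the N2 higher table, 2.05, its prp-8 ratio was above the median of 0.65, and its prp-31 ratio was close to the median of 0.67. At least 2-fold higher values were seen in 42.3, 83.9 and 28.9 percent of that table's genes with prp-8, prp-6 and prp-31, and in 36.4, 72.2 and 24.8 percent of both N2 tables. In the authors' deposited table its q-value was 0.235.

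**Figure D4:**
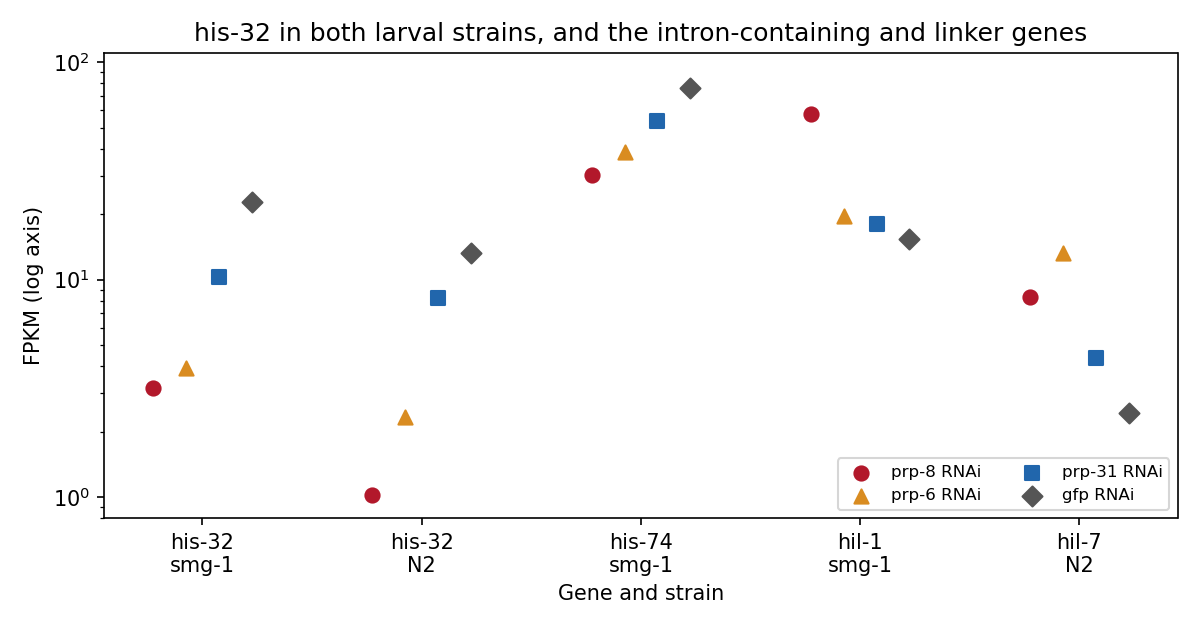
FPKM on a log axis of his-32 in smg-1 and N2 larvae, of the H3 variant gene his-74 and the linker gene hil-1 in smg-1, and of the linker gene hil-7 in N2, with 1 point for each library. His-32 and his-74 have their highest value with gfp RNAi, hil-1 has its highest with prp-8 (57.8 FPKM) and hil-7 with prp-6 (13.3 FPKM).

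Of the 13 core genes in the authors' deposited table of smg-1, 8 had a q-value below 0.05, and of the 8 members among them 6 did, the exceptions being his-18 (0.122) and his-2 (0.123). Over all 139 genes listed as lower, 37 had such a q-value. No histone gene was in the glp-4 tables of adults, which hold 146 genes.

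Few genes of the lists for histone supply and for replication were in the tables. Of a list of 18 genes for histone chaperones, processing and modification, none was in the N2 or smg-1 tables and nasp-2, which encodes a homologue of the histone chaperone NASP, was in the glp-4 lower table. It had 6.82 FPKM with prp-8 and 36.2 with prp-31, against 44.6 with gfp RNAi. Of a list of 46 replication and cell cycle genes, the smg-1 tables held cdk-1, which encodes the mitotic kinase, and the N2 tables cdc-25.1, which encodes a phosphatase that activates cyclin-dependent kinases. Cdk-1 had 28.1 FPKM with prp-8, 25.6 with prp-6 and 29.4 with prp-31 in smg-1, against 46.4 with gfp RNAi, and was less than 2-fold lower with each clone (log2 ratios of −0.70, −0.83 and −0.64). Cdc-25.1 had 5.08, 5.14 and 8.61 FPKM with prp-8, prp-6 and prp-31 RNAi in N2, against 14.6 with gfp RNAi. In the glp-4 tables of adults, which list no histone gene, 4 genes of that list were present, all as lower (cdc-25.2, cyb-2.2, plk-3 and rnr-2, which encodes a ribonucleotide reductase subunit). Rnr-2 had 9.69 FPKM with prp-8 and 27.9 with prp-31, against 37.6 with gfp RNAi. The genes of the replication machinery itself in that list, such as the mcm genes and pcn-1, were in no larval table, so they have no value here. The glp-4 tables also held 6 of a list of 31 germline markers, all as lower (egg-1, gld-3, oma-1, puf-5, puf-11 and rme-2). Their summed level was 11.9 FPKM with prp-8 and 81.2 with prp-31, against 107 with gfp RNAi. The part of germline content in the adult values of nasp-2 and rnr-2 was not tested.

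Other signals also differed between the larval libraries. Of 31 germline markers, 3 were in the smg-1 tables, the meiotic genes htp-1 and syp-1 as lower and the yolk protein gene vit-6, which is expressed in the intestine, as higher. Htp-1 had 5.07 FPKM with prp-8, 5.69 with prp-6 and 9.77 with prp-31, against 12.9 with gfp RNAi. Syp-1 had 3.62, 4.15 and 6.23 FPKM with prp-8, prp-6 and prp-31, against 8.52 with gfp RNAi. Vit-6 went the other way at values under 1 FPKM, with 0.715, 0.624 and 0.286 with prp-8, prp-6 and prp-31, against 0.0844 with gfp RNAi. The summed level of these 3 was 9.40 FPKM with prp-8, 10.5 with prp-6 and 16.3 with prp-31, against 21.5 with gfp RNAi. None of the markers was listed at 0 in these libraries, and the other germline markers have no value here. The ribosomal RNA gene rrn-2.1 had 34627 FPKM with prp-8, 36295 with prp-6 and 12191 with prp-31, against 4034 with gfp RNAi. Apart from vit-6, which was counted in the germline list, no marker of hypodermis, intestine, muscle or neurons from the lists was in the smg-1 tables. In N2, where his-32 and hil-7 were listed, 1 of the 31 germline markers was in the tables, the germ granule helicase gene glh-2, with 2.36 FPKM with prp-8, 2.56 with prp-6 and 5.86 with prp-31, against 10.4 with gfp RNAi. Of 6 hypodermis markers, the cuticle collagen genes rol-6 and sqt-3 were listed there as higher. Their summed level was 483 FPKM with prp-8, 3037 with prp-6 and 641 with prp-31, against 407 with gfp RNAi, so that the prp-6 library, in which hil-7 was also highest, stood apart. The N2 tables held no marker of intestine, muscle or neurons. The part of germline content, of cuticle gene levels and of ribosomal RNA carry-over in the histone values was not tested.

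By their log2 ratios over the 3 smg-1 knockdowns, 6 of the other 12 core histone genes were nearer to his-3 than any other gene of the smg-1 tables. The nearest other gene was T22D1.18, at a Euclidean distance of 1.02, with 0.622 FPKM with prp-8, 1.69 with prp-6 and 3.59 with prp-31, against 9.93 with gfp RNAi. It was followed by F15E6.4 (1.36), Y17D7B.7 (1.48), C54C8.2 and the lipase-like gene lips-6 (1.70), while the farthest of the 12 core genes was at 2.29.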

How the data were processed

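Paired-end reads of 73 bp were made from poly(A)-enriched RNA, per the labels' protocols, which state a lower bound on reads per sample and nothing closer; depth is thus unknown and no interval can be given. Cufflinks and Cuffdiff are named in the submitters' processing notes; versions, aligner, build and annotation are named nowhere in the sources used here. The authors deposited 6 tables of genes they selected, all with an unadjusted P-value of at most 0.01 and a q-value. Per the file headers these hold FPKM for each library, pooled FPKM, a log2 fold change of the pooled values, and in 5 tables a test statistic, a score that was not used. The glp-4 tables are titled glp-1, and the column names and labels, which say glp-4, were followed.

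From the single-library FPKM, log2 ratios with a pseudocount of 1 FPKM were computed with Python 3.11.15, numpy 2.4.6 and pandas 2.3.3, and counts used a 2-fold threshold. The code was tested on simulated data. Histone classes came from knowledge of the gene family, and the listed core genes of a class shared 1 annotated coding length, different from those of the other classes. A locus is a run of listed histone genes with starts at most 10000 bases apart. The genes named are the 10 members, other listed histone genes, listed genes of fixed histone supply, replication and marker lists, and the 5 genes nearest to his-3. Members and lists were chosen with earlier results of these data known. Groups followed the sample titles.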

Additional observations from a re-analysis of the deposited data

How the results depend on the processing

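With a pseudocount of 0.1 FPKM, every member ratio, class median and count of lower histone genes kept its direction and its side of 2-fold. A smaller pseudocount moves ratios away from 0, so no ratio at or beyond 2-fold could have fallen short of it. The medians of the 8 core members were −3.65, −2.25 and −2.01 for prp-8, prp-6 and prp-31 with the lower pseudocount, against −2.85, −2.01 and −1.80. With only genes of a mean of at least 1 FPKM, the member ratios, the medians of the core members and the counts were unchanged. No listed histone gene fell below that mean, so this filter could not change them. Class medians were not rerun with it. Setting the median ratio of a strain's tables to 0 shifts all ratios by 1.27, 0.71 and 0.27 in smg-1 and by 0.35, 1.72 and 0.58 in N2, in the order prp-8, prp-6, prp-31. These medians come from genes selected mostly as higher. Under this setting hil-1 was at −0.37 with prp-6, −0.047 with prp-31 and 0.59 with prp-8. Hil-7 was at 0.33 with prp-6, and his-32 in N2 was at −1.20 with prp-31. The core members in smg-1 stayed at least 2-fold lower. That outcome was fixed in advance, since the shift lowered every smg-1 ratio. At a 3-fold threshold, 6 histone genes were lower with prp-31 and 6 in every knockdown, against 13 each at 2-fold. Leaving out each knockdown library in turn gave 13 histone genes lower in the others every time, and 32 to 61 genes in all. Leaving out a library can only keep or raise such a count, so the 13 could not have fallen. Without the prp-31 library the count over all genes was the 61, against 26 with every library. With the authors' pooled FPKM, hil-1 was at 0.99. Locus limits of 2000 or 50000 bases gave the same loci. No paired analysis was possible because each group had 1 library and so no second replicate number to pair; the differences of his-32 between strains, matched by clone, were given as values and not tested.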

Other observations

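The deposited pooled FPKM of his-18 departs from its single-library values in a way that the other core genes in smg-1 do not share. Its pooled knockdown value was 1.21 FPKM and its pooled gfp value 8.73 FPKM, or 0.622 times the 14.0 FPKM of the gfp library. For the other 12 core genes the pooled gfp value was 1.11 to 1.45 times that of the gfp library, and the median over 467 genes of the smg-1 tables with both values above 0 was 1.21. Both sets of values place the knockdowns of his-18 below gfp.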
